A study of Mus musculus with 30 samples.

Results

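The genes described here encode the nuclear pore and the machinery that carries proteins and RNA through it. They were taken from the gene names of the array by symbol: the numbered nucleoporins (Nup), the importin alpha and beta genes (Kpna, Kpnb), the other numbered importins (Ipo) and exportins (Xpo), and Ran, Ranbp1, Ranbp2, Rangap1, Rcc1 and Cse1l. This gave 45 of the 18194 genes with a probe set of their own. Each was read from its probe set of highest mean, and all 45 had a mean above the low-value limit of 5.33 on the log2 scale. By role they fall into 4 genes of the Ran cycle, 6 importin alpha adaptors, 8 import receptors of the beta family, 7 export receptors and 20 pore proteins.

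RNA was measured on arrays in villi and crypts of the small intestine of mice aged 2 months. The genes had been deleted 5 days before. The 3 genotypes were control, Rb KO, in which the retinoblastoma gene Rb1 was deleted, and Rb/Myc DKO, in which Rb1 and Myc were deleted together. Each genotype had 5 arrays from villi and 5 from crypts, 30 in all. The labels name the inducible, intestine-specific Ah-cre as the means of deletion for all groups and do not say whether control mice carried it, and they give no strain. All levels below are log2, all differences are log2 ± SE from limma, and adjusted p-values are two-sided over 14548 genes with a threshold of 0.05. The labels do not state that replicates were separate mice, so each p measures the spread between these samples.

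Transport through the pore is driven by the small GTPase Ran. Rcc1 loads Ran with GTP on chromatin and Rangap1 triggers hydrolysis in the cytoplasm, so that RanGTP is high in the nucleus, where it strips cargo from importins and binds exportins together with theirs. The pore itself is built from an outer ring (the Y complex), an inner ring, membrane anchors, a central channel of disordered proteins, a nuclear basket and cytoplasmic filaments. Pores are duplicated before division, and dividing cells such as those of the crypt keep making them, while the enterocytes that cover the villus have left the cell cycle. Rb restrains E2F transcription factors, and Myc binds the E-box with its partner Max.

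Promoter windows of 300 bases, from 250 before to 50 after the start of transcription, were available from RefSeq (build GRCm38.p6) for 36 of the 45 genes. Shown are 5 whose results enter the comparisons below, and all 5 hold a match to the letters searched. Ranbp1, Nup133 and Ran were higher in Rb KO villi, and Ipo7 and Ipo4 were lower in DKO crypts. Each is printed on the strand of its gene, with capitals marking an E2F spelling or an E-box on either strand. The E2F spellings searched were TTCCCGC and, as its variants, TTGGCGC, the further form TTGCCGC, and lastly the form TTCGCGC. The E-box was CACGTG. The 5 are not typical of the 36 genes, of which 7 held an E2F spelling and 8 an E-box. Windows with neither, such as those of Ipo9, Nup160 and Nup155, are not shown, and Nup85 had no window.
Ranbp1, chr16:18248645-18248944, minus strand: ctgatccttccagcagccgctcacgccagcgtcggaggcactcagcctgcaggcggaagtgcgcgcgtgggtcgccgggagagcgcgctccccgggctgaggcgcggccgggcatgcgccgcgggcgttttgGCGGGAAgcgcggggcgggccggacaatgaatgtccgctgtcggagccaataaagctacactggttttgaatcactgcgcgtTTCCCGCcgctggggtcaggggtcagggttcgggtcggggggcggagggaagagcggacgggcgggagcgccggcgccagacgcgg
Nup133, chr8:123949216-123949515, minus strand: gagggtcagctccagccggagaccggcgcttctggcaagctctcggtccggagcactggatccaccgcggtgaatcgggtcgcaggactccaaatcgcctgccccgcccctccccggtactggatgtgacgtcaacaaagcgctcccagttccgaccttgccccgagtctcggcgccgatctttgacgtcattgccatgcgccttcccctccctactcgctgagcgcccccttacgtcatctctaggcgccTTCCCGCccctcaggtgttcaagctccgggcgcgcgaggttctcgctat
Ran, chr5:129019906-129020205, plus strand: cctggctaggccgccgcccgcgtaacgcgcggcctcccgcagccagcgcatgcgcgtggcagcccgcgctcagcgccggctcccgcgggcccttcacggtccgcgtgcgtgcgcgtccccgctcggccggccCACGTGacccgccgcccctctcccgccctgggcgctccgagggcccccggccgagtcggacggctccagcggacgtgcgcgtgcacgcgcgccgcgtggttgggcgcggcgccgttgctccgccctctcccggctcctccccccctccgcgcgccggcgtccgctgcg
Ipo7, chr7:110018065-110018364, plus strand: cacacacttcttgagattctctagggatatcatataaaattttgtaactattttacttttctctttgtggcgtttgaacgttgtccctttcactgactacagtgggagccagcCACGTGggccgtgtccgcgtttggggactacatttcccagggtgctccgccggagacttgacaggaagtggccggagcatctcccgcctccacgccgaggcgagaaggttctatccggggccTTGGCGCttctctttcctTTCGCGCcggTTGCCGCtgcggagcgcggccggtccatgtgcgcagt
Ipo4, chr14:55635635-55635934, minus strand: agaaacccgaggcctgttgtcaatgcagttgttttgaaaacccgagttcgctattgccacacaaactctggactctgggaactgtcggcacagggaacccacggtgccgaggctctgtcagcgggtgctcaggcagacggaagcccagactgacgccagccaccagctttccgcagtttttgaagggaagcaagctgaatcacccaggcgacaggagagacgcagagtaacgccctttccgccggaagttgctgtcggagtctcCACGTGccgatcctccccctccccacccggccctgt
With the start site as position 0, the capitals of Ranbp1 are E2F spellings that begin at −118 and −36, and that of Nup133 begins at 1. Ran has an E-box at −118. Ipo7 has an E-box at −137 and E2F spellings at −15, 3 and 13. Ipo4 has an E-box at 14. Of the 20 motif hits in the windows of all 36 genes, 0 overlapped another. A match is a run of letters, not a site shown to be bound.

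Rb1 fell by 1.46 ± 0.16 in Rb KO villi and by 1.68 ± 0.18 in Rb KO crypts, with every Rb KO and DKO array below every control array of its tissue. Myc fell by 1.60 ± 0.16 from Rb KO to DKO crypts (adjusted p = 1.87e-05). In villi, where Myc stood at 6.76 to 7.28 on average, DKO lay 0.52 below Rb KO (adjusted p = 0.147). Whether either gene's probes lie in the deleted sequence is not known here. Villus and crypt arrays appear to have been normalized separately, so levels are compared only within a tissue. Arrays of the same group correlated at 0.987 to 0.9973. Enterocyte markers such as Alpi and Fabp1 averaged the 99.8th percentile or above of each villus array, and the 9 crypt markers averaged the 93rd percentile or above in crypts and the 76th to 81st in villi.

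In villi, Rb loss was accompanied by higher expression of most of these genes. Of the 45, 28 were higher in Rb KO than in control, 2 were lower and 15 did not pass the test, where 14.7% of all genes tested were higher and 15.8% lower. The median difference of the 45 was 0.48, against −0.02 over all genes tested. In 24 of the 45 every Rb KO array lay above every control array, against 9.88% of all genes, and in 0 every one lay below, against 8.81%. In whole villi, fewer cells of a type and less RNA per cell cannot be told apart.

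All 4 genes of the Ran cycle rose. Ran stood at 11.00, 10.55, 10.88, 11.33 and 10.57 in control villi 1 to 5 and at 12.12, 11.83, 11.77, 12.31 and 12.24 in Rb KO villi 1 to 5. The groups did not overlap, and the difference was 1.19 ± 0.15, adjusted p = 2.94e-05, a 2.28-fold rise. Ranbp1, which helps Rangap1 release Ran from transport receptors, had values of 10.21, 9.55, 9.95, 10.61 and 9.62 in control and 11.42, 11.16, 11.19, 11.63 and 11.74 in Rb KO villi. Every Rb KO array was above every control array again (2.71-fold, 1.44 ± 0.19, adjusted p = 4.15e-05). Rangap1 rose by 0.84 ± 0.14 (adjusted p = 3e-04). Control arrays lay at 8.35 to 9.05 and Rb KO arrays above them at 9.32 to 9.93. Rcc1, the exchange factor, spanned 7.51 to 7.92 over control villi and 8.09 to 8.41 over Rb KO villi and rose by the least of the group (0.53 ± 0.10, adjusted p = 0.00105). Ran was read by 5 probe sets above the low-value limit, and these gave rises of 0.93 to 1.19.

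Among import receptors, rises and falls occurred side by side. Ipo9, an import receptor for core histones and other basic proteins, had the smallest p of all 45 genes. It stood at 7.87, 8.10, 7.97, 8.13 and 7.74 in control and at 8.94, 8.91, 8.97, 8.91 and 9.16 in Rb KO villi, a 2.02-fold difference with no overlap (1.01 ± 0.09, adjusted p = 5.47e-07). Kpnb1, the importin beta that works with the alpha adaptors, rose by 0.89 ± 0.13 (adjusted p = 0.00013). Ipo5 and Ipo7, carriers of ribosomal proteins and histones, rose by 1.34 ± 0.27 and 0.67 ± 0.14. Control villi spread widely in Ipo5, from 6.97 to 8.84, while the Rb KO arrays lay between 8.97 to 9.60.

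Ipo4 and Ipo8 went the other way. Ipo4, which carries histones and ribosomal proteins, had values of 9.12, 9.14, 9.12, 9.22 and 8.53 in control villi and 8.86, 8.59, 8.77, 8.45 and 8.42 in Rb KO villi. The groups overlapped through control array 5, and the fall was 0.41 ± 0.12 (adjusted p = 0.0167), or −0.29 with adjusted p = 0.137 without Rb KO arrays 4 and 5. A second probe set of Ipo4 gave −0.45. Ipo8 fell by 0.26 ± 0.07 (adjusted p = 0.0111), and of its other probe sets one gave −0.79 and a dim one 0.14. Of the 6 importin alpha genes, Kpna2 and Kpna3 rose. Kpna2, an adaptor abundant in proliferating cells, went from 10.46 to 10.78 to 10.99 to 11.72 (0.75 ± 0.16, adjusted p = 0.00187). The differences of Kpna1, Kpna4, Kpna6 and Kpna7 lay between −0.06 and 0.18 and did not pass. Dimmer probe sets of Kpna4 (−0.35), Kpna6 (−0.32) and Kpna1 (−0.34 and −0.25) were lower, with adjusted p of 0.0115 to 0.044 among all probe sets. Further Kpna1 probe sets gave −0.38 and 0.05 and did not pass.

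Of the 7 export receptors, 3 rose. Xpo1, the receptor for leucine-rich export signals, spanned 9.09 to 9.46 over control villi and 9.80 to 10.21 over Rb KO villi (0.69 ± 0.10, adjusted p = 0.000106). Cse1l, which returns importin alpha to the cytoplasm, rose by 0.62 ± 0.16 (adjusted p = 0.00654, but 0.071 without Rb KO arrays 4 and 5), and Xpo7 by 0.45 ± 0.11. Xpo5, the exporter of microRNA precursors, and Xpot, the exporter of tRNA, differed by 0.06 and 0.14 and did not pass.

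The scaffold of the pore held several of the largest rises. Nup85 of the outer ring stood at 7.86, 7.19, 7.57, 8.07 and 7.41 in control villi and at 9.27, 9.22, 8.93, 9.38 and 9.30 in Rb KO villi. This 3.03-fold difference was the largest of the 45 (1.60 ± 0.14, adjusted p = 6.79e-07), with no overlap. Nup160 (1.38 ± 0.16, adjusted p = 1.63e-05) and Nup133 (1.31 ± 0.19, adjusted p = 9.5e-05), also of the outer ring, rose 2.59-fold and 2.47-fold, and Nup43 by 0.67 ± 0.13. Nup107 and Nup37, further subunits of the same ring, differed by 0.16 and 0.48 and did not pass (adjusted p = 0.206 and 0.145).

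All 4 inner ring genes rose. Nup155 went from 6.40 to 7.12 to 7.81 to 8.10 (1.25 ± 0.15, adjusted p = 1.67e-05) and Nup205 from 8.39 to 8.84 to 9.40 to 9.95 (1.07 ± 0.13, adjusted p = 1.52e-05), both without overlap. Nup93 and Nup188 rose by 0.69 ± 0.15 and 0.49 ± 0.07. Both genes of the central channel rose, Nup62 by 0.83 ± 0.09 (adjusted p = 9.28e-06) and Nup54 by 0.62 ± 0.09. Nup210, a membrane anchor, rose by 0.99 ± 0.12 (adjusted p = 1.26e-05), while its paralog Nup210l differed by −0.10. Nup50 of the nuclear basket rose by 0.48 ± 0.08, Nup88 and Nup214 of the cytoplasmic side by 0.45 ± 0.08 and 0.24 ± 0.06, and Ranbp2, the filament protein, by 0.30 ± 0.10 (adjusted p = 0.0333). Nup153 and Nup98 differed by 0.19 and 0.18 and did not pass. Dimmer probe sets of Nup153 gave 0.42 and 0.57, with adjusted p of 0.000514 and 0.00436 among all probe sets. A dimmer probe set of Nup98 gave −0.33 (adjusted p = 0.0102 among all probe sets). Of the 22 genes past the test with more than 1 probe set above the limit, 18 had all of them on the same side of 0. The exceptions were Ipo8, Nup188, Ranbp2 and Rangap1. With the mean of each gene's probe sets in place of the brightest, several rises were smaller by over 1.5 times while still called: Rangap1 at 0.54, Nup160 at 0.77, Nup155 at 0.67, Nup205 at 0.57, Nup210 at 0.55 and Nup188 at 0.19. Here and below, this mean takes in probe sets under the low-value limit, as for Nup160, Nup155, Nup210, Ran and Xpot.

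**Figure D1:**
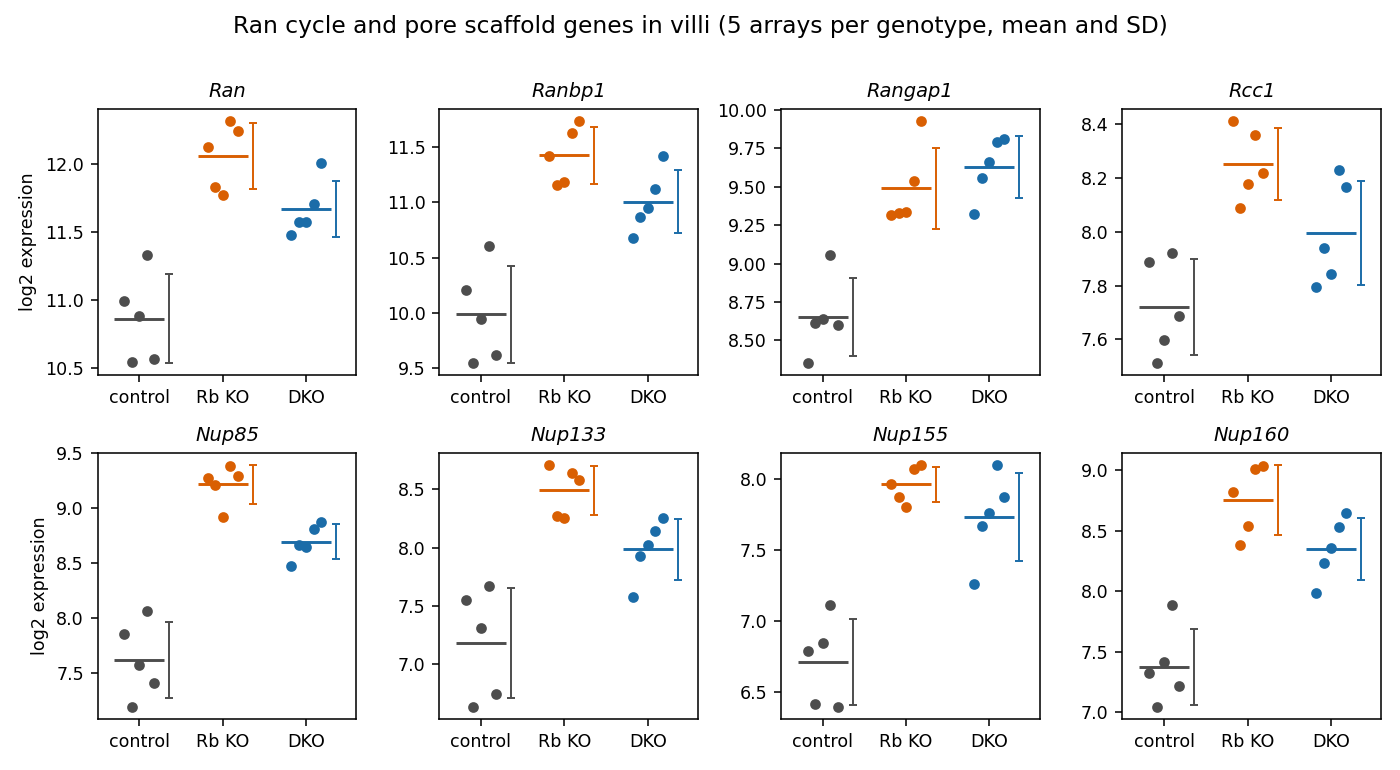
Log2 expression of the 4 Ran cycle genes and of 4 scaffold nucleoporins in villi, by genotype. Points are single arrays (5 per genotype), horizontal lines are means and bars are SD, and the y axes do not start at 0. In all 8 panels every Rb KO point lies above every control point.

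The villus arrays also differed in their crypt markers. From control to Rb KO villi both these markers and the mean level of the 45 genes were higher, and from Rb KO to DKO villi the markers were higher and the 45 genes lower. The mean level of the 9 crypt markers was 8.93 ± 0.93 (SD, n = 5) in control villi, 9.38 ± 0.47 in villi without Rb and 9.65 ± 0.46 in villi without both genes. Averaged over the 45 transport genes, the level was 8.45 ± 0.15, 8.98 ± 0.13 and 8.83 ± 0.12 in the same order. The crypt score of an array is the first of these means, centred over the 15 villus arrays. Control villi 4 and 1 were highest and 2 and 5 lowest in both measures. Control array 4 had a higher crypt score (0.93) than every Rb KO array (at most 0.78), and its mean level of the 45 genes, 8.67, was below the lowest Rb KO array, at 8.84. With the crypt score as a covariate, 27 genes were higher and 2 lower in Rb KO villi, and Ran still differed by 1.03 and Nup85 by 1.45. T cell markers, 9 of 9 measured, were lower in Rb KO villi (9.75 to 10.44) than in DKO villi (10.57 to 10.87), and overlapped control villi (10.33 to 10.95), and their part in the result was not tested. The difference between the 3′ and 5′ Gapdh probe sets, a sign of RNA quality, spanned −0.21 to −0.11 over control villi and −0.09 to 0.01 over Rb KO villi. With it as a covariate 29 genes were higher and 1 lower. The shares of all genes called with either covariate are not given here, so these counts cannot be set against them.

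**Figure D2:**
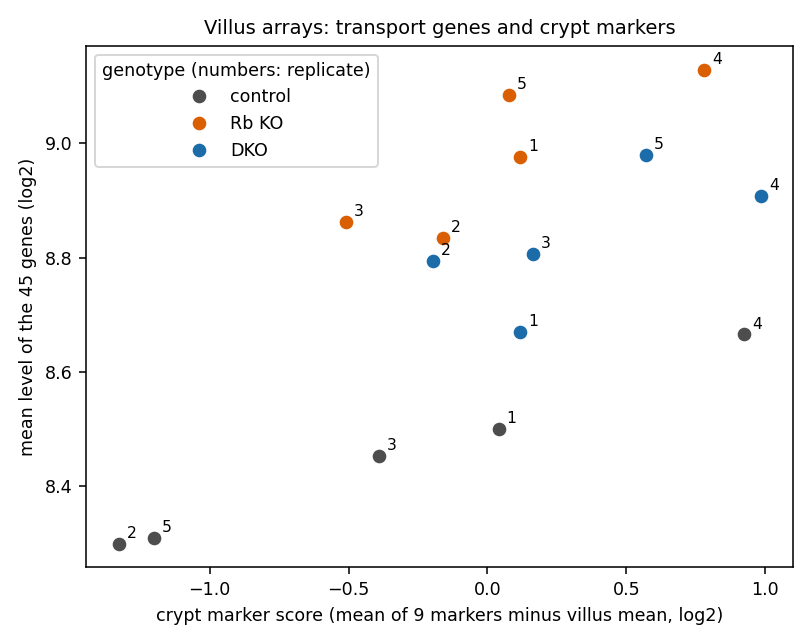
Mean log2 level of the 45 genes (y) against the crypt marker score (x, log2) on the 15 villus arrays, coloured by genotype and numbered by replicate. The 5 Rb KO arrays lie between 8.84 and 9.13 on the y axis, and the 5 control arrays between 8.30 and 8.67, over overlapping ranges of the score.

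The next comparison set DKO villi against Rb KO villi, genotypes that differ in Myc. Of the 45 genes, 1 was lower in DKO than in Rb KO villi and 0 were higher, where 1.92% of all genes tested were lower and 5.90% higher. The median difference was −0.14, against −0.005 over all genes. Groups were apart with DKO lower in 1 of the 45 and with DKO higher in 0, against 2.96% and 6.14% of all genes. The gene was Nup85, at 8.48, 8.66, 8.65, 8.82 and 8.88 in DKO villi, below all Rb KO arrays given above (−0.52 ± 0.14, adjusted p = 0.0355). This call rests on few arrays: it was lost when any 1 of 8 of the 10 arrays was left out, all but Rb KO 3 and DKO 5 (adjusted p = 0.0519 to 0.0804), and with the mean of its probe sets (adjusted p = 0.0602). Ran (−0.39 ± 0.15, adjusted p = 0.132), Ranbp1 (−0.42 ± 0.19, adjusted p = 0.191) and Kpna2 (−0.41 ± 0.16, adjusted p = 0.127) were lower too, without passing. Rangap1 and Xpo1 differed by 0.14 and −0.06, and Kpnb1, Rcc1 and Cse1l by −0.27, −0.26 and −0.19, none of which passed. Other probe sets of Rangap1 gave −0.22 and 0.06 and did not pass. The count changed with the crypt markers in the fit: with the crypt score as a covariate, 20 of the 45 genes were lower in DKO, among them Ran (−0.48, adjusted p = 0.00158), Ranbp1 (−0.54, adjusted p = 0.00329), Kpna2, Kpnb1, Rcc1 and Cse1l. The 1.92% above belongs to the fit without this covariate. The share of all genes lower with it is not given here, so the 20 cannot be set against it. Without Rb KO arrays 4 and 5, the Rb KO villi highest in the mean of the 45 genes, 0 were called and Ran differed by −0.24.

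Set against control, DKO villi had 23 of the 45 genes higher and 1 lower, where 11.3% of all genes were higher and 5.78% lower. The median difference was 0.31, against −0.03 over all genes. Every DKO array lay above every control array in 17 of the 45 and below in 0, against 8.99% and 5.49% of all genes. This comparison uses the same control arrays as that of Rb KO, so the values are given side by side and their likeness is no separate evidence. Ran in DKO villi read 11.48, 11.57, 11.58, 11.71 and 12.01, all above control (0.80 ± 0.15, adjusted p = 0.00163, against 1.19 in Rb KO). Ranbp1 was at 10.68 to 11.42, without overlap with control (1.02 ± 0.19, adjusted p = 0.00148, against 1.44).

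At their brightest probe sets, Rangap1 and Ipo9 stood about as far above control in DKO as in Rb KO villi. A second bright probe set of Rangap1 gave the opposite order, 0.74 in DKO and 0.96 in Rb KO villi, and a dimmer one −0.12 and −0.18. Rangap1 read 9.32, 9.55, 9.66, 9.79 and 9.81 (0.98 ± 0.14, adjusted p = 0.000148, against 0.84) and Ipo9 8.76, 8.94, 9.03, 9.12 and 9.10 (1.03 ± 0.09, adjusted p = 7.5e-07, against 1.01), both above every control array. Nup85 (1.08 ± 0.14, adjusted p = 6.35e-05), Nup155 (1.02 ± 0.15, adjusted p = 0.000195), Nup160 (0.97 ± 0.16, adjusted p = 0.000655), Nup205 (0.76 ± 0.13, adjusted p = 0.000553), Nup210 (0.74 ± 0.12, adjusted p = 0.00033) and Nup62 (0.56 ± 0.09, adjusted p = 0.000604) were higher in DKO than in control. Xpo1 rose by 0.63 ± 0.10 and Nup50 by 0.45 ± 0.08, again without overlap with control. Kpnb1 was higher by 0.62 ± 0.13, with groups that overlapped. Kpna2 (0.34 ± 0.16, adjusted p = 0.15), Rcc1 (0.28 ± 0.10, adjusted p = 0.0795) and Cse1l (0.43 ± 0.16, adjusted p = 0.0714) did not pass. The calls of Rcc1 and Cse1l were made when control array 4 or DKO array 1 was left out (adjusted p = 0.0209 to 0.05). With the mean of probe sets Rangap1 (0.54), Nup155 (0.61), Nup160 (0.56), Nup205 (0.43) and Nup210 (0.38) were smaller by over 1.5 times and still passed. Ipo4 was the gene that fell, at 8.42 to 8.62 in DKO villi (−0.47 ± 0.12, adjusted p = 0.0128).

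In crypts, loss of Rb was accompanied by smaller rises in some of the same genes. Of the 45, 11 were higher in Rb KO than in control crypts, 1 was lower and 33 did not pass, where 7.33% of all genes were higher and 2.97% lower. The median difference was 0.11, against −0.003 over all genes. In 12 of the 45 every Rb KO array lay above every control array, against 6.76% of all genes, and in 1 below, against 2.68%. All 11 were also among the 28 higher in Rb KO villi: Ran, Ranbp1, Kpna2, Kpna3, Kpnb1, Ipo9, Nup50, Nup54, Nup85, Nup160 and Nup205.

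Nup50, the basket protein that helps recycle importins, had the smallest p, with values of 10.65, 10.58, 10.65, 10.58 and 10.67 in control and 10.95, 10.85, 10.94, 10.99 and 10.89 in Rb KO crypts. These did not overlap (1.23-fold, 0.30 ± 0.04, adjusted p = 0.000385). Kpna3 stood at 9.50, 9.29, 9.45, 9.16 and 9.20 in control and 9.74, 9.72, 9.77, 9.78 and 9.57 in Rb KO crypts, also apart (0.39 ± 0.07, adjusted p = 0.0015). Nup85 had the largest difference (0.45 ± 0.08, adjusted p = 0.00226), from arrays at 9.97 to 10.42 in control crypts and at 10.40 to 10.78 in Rb KO crypts, which overlapped. Ipo9 rose by 0.31 ± 0.07 (adjusted p = 0.00654), Nup160 by 0.29 ± 0.07 (adjusted p = 0.0118) and Kpna2 by 0.26 ± 0.06 (adjusted p = 0.0132). These 6 calls were kept when each array was left out in turn, and those of Nup160 and Kpna2 were lost without both Rb KO 4 and 5 (adjusted p = 0.0924 and 0.121). The mean of its probe sets gave 0.13 for Nup160 and did not pass (adjusted p = 0.332). The other probe set in that mean lay below the low-value limit and gave −0.03.

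The other 6 calls were not kept. Ran read 13.53, 13.36, 13.58, 13.49 and 13.58 in control and 13.61, 13.62, 13.68, 13.79 and 13.75 in Rb KO crypts, all Rb KO arrays above control (0.18 ± 0.06, adjusted p = 0.0459). Its call was lost without control 1, 2 or 4 or Rb KO 3, 4 or 5 (adjusted p = 0.057 to 0.115). Of the 4 other Ran probe sets above the limit, 3 gave 0.10 to 0.14 and did not pass. The remaining 1 gave 0.37 (adjusted p = 0.0111 among all probe sets). Ranbp1 rose by 0.24 ± 0.07 (adjusted p = 0.0298, but 0.0606 to 0.0784 without control 2 or 4 or Rb KO 3 or 4). Kpnb1 (0.27 ± 0.07, adjusted p = 0.0207) lost its call without control 2 or Rb KO 4 (adjusted p = 0.0552 and 0.0609). Nup54 (0.23 ± 0.06, adjusted p = 0.0243) lost it without control 2 or 5 or Rb KO 3 or 4, and Nup205 (0.21 ± 0.06, adjusted p = 0.0342) without control 2, 3, 4 or 5 or Rb KO 1, 3 or 4. Ipo4 was the gene that fell, from 10.21, 9.91, 9.92, 10.23 and 10.06 to 9.70, 9.81, 9.80, 9.91 and 9.80, with groups that met at 9.91 and did not cross (−0.26 ± 0.07, adjusted p = 0.0307). That call was lost without control 1 or 4 or any Rb KO array but 4 (adjusted p = 0.0535 to 0.0797), and with the mean of its probe sets (adjusted p = 0.0855).

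Rangap1 (0.22 ± 0.07, adjusted p = 0.0651), Xpo1 (0.11 ± 0.05, adjusted p = 0.16), Cse1l (0.12 ± 0.07, adjusted p = 0.313) and Rcc1 (0.10 ± 0.07, adjusted p = 0.441) did not pass in crypts, though the mean of Rangap1's probe sets did (0.18, adjusted p = 0.0149). Nup62, Nup107 and Kpna4 had every Rb KO array above every control array and differed by 0.23, 0.18 and 0.26 without passing. The count of 12 calls fell to 7 without control 2, without Rb KO 3 or without Rb KO 4, and to 5 without both Rb KO 4 and 5. Crypt markers averaged 12.31 ± 0.18 in Rb KO and 12.52 ± 0.18 in control crypts. With the crypt score as a covariate 7 genes were higher and 0 lower, and the share of all genes called in that fit is not given here. Enterocyte markers, 9 of 10 measured, lay at 12.82 to 13.31 in Rb KO crypts and at 12.21 to 13.03 in control crypts, and their part was not tested.

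Between DKO and Rb KO crypts, which differ in Myc, few of the genes were called. Of the 45 genes, 6 were lower in DKO than in Rb KO crypts and 1 was higher, where 7.22% of all genes were lower and 5.17% higher. The median difference was −0.04, against 0.01 over all genes. Every DKO array lay below every Rb KO array in 7 of the 45 and above in 1, against 6.78% and 4.89% of all genes. The 6 were the import receptors Ipo4, Ipo5 and Ipo7, the export receptors Xpot and Xpo5, and Rcc1, and none was a pore protein. The 20 pore proteins differed by −0.19 to 0.13. The lowest was Nup153 of the basket, at 10.39, 10.40, 10.41, 10.40 and 10.32 in Rb KO crypts and 10.22, 10.22, 10.05, 10.16 and 10.30 in DKO crypts. All its DKO arrays lay below all Rb KO arrays, and it did not pass (−0.19 ± 0.07, adjusted p = 0.0711). A second, dimmer probe set of Nup153 gave −0.30, with an adjusted p of 0.00676 among all probe sets. Dimmer probe sets of the importin alpha genes Kpna4 and Kpna6 gave −0.38 and −0.22 (adjusted p = 0.0381 and 0.0408 among all probe sets). Their brightest probe sets gave −0.22 and 0.04 and did not pass.

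Ipo4 changed most. Its values were 10.21, 9.91, 9.92, 10.23 and 10.06 in control, 9.70, 9.81, 9.80, 9.91 and 9.80 in Rb KO and 9.26, 9.08, 9.12, 9.33 and 9.10 in DKO crypts, so that all DKO arrays lay below all Rb KO arrays, and these below all control arrays. The fall from Rb KO to DKO was 0.62 ± 0.07 (1.54-fold lower, adjusted p = 7.03e-05), and a second probe set gave −0.46. Ipo7 read 11.85, 11.71, 11.75, 11.81 and 11.57 in control, 11.70, 11.79, 11.77, 11.85 and 11.69 in Rb KO and 11.41, 11.53, 11.45, 11.45 and 11.44 in DKO crypts. Control and Rb KO lay over each other and DKO lay below both (−0.30 ± 0.05, adjusted p = 0.00189).

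Ipo5 was also lowest on average in DKO crypts, whose arrays overlapped those of control (11.05 to 11.32). It read 11.31, 11.36, 11.28, 11.34 and 11.17 in Rb KO and 10.82, 10.92, 11.00, 11.06 and 11.01 in DKO crypts, without overlap (−0.33 ± 0.06, adjusted p = 0.00245). Its second bright probe set gave −0.03 and did not pass, and the mean over its probe sets did not pass either (−0.13, adjusted p = 0.0948). Xpot, the tRNA exporter, read 10.40, 10.43, 10.55, 10.68 and 10.55 in Rb KO and 10.04, 10.31, 10.24, 10.11 and 10.10 in DKO crypts (−0.36 ± 0.07, adjusted p = 0.00368). Xpo5 went from 8.93 to 9.09 to 8.57 to 8.87 (−0.29 ± 0.06, adjusted p = 0.00877). Both were separate in every array.

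Rcc1 spanned 9.64 to 9.79 over Rb KO crypts and 9.27 to 9.67 over DKO crypts, which overlapped (−0.24 ± 0.07, adjusted p = 0.0358). Its call was lost without Rb KO 1, 2, 3 or 4 or DKO 1, 2 or 3 (adjusted p = 0.0565 to 0.0872), and with the replicate number as a block (adjusted p = 0.0574). Ipo9 went the opposite way. It read 9.57, 9.27, 9.45, 9.36 and 9.39 in control, 9.75, 9.67, 9.80, 9.72 and 9.64 in Rb KO and 9.82, 10.10, 9.97, 10.08 and 9.91 in DKO crypts, with each group above the one before it and no overlap (0.26 ± 0.07, adjusted p = 0.0162 from Rb KO to DKO, but adjusted p = 0.0854 without Rb KO arrays 4 and 5 and 0.123 with the crypt score as a covariate). Ran, Ranbp1, Cse1l, Xpo1 and Kpna2 differed between DKO and Rb KO crypts by 0.01, 0.00, 0.00, 0.03 and −0.05, with standard errors of 0.05 to 0.07. Of the 4 other Ran probe sets above the limit, 3 gave −0.20 to −0.12 and 1 gave −0.02, and none passed. Rangap1 (0.15 ± 0.07, adjusted p = 0.196) and Kpnb1 (−0.16 ± 0.07, adjusted p = 0.136) did not pass, although all DKO arrays of Kpnb1 lay below all Rb KO arrays and the mean of its probe sets passed (−0.17, adjusted p = 0.048). With the mean of probe sets Xpot differed by −0.16 (adjusted p = 0.0431). Several marker lists also differed between these groups. Crypt markers averaged 12.31 ± 0.18 in Rb KO crypts and 12.61 ± 0.15 (SD, n = 5) in DKO crypts. With the crypt score as a covariate 8 of the 45 genes were lower in DKO and 0 higher. The share of all genes called in that fit is not given here, so the 8 cannot be set against it. T cell markers averaged 7.56 ± 0.32 in the first group and 7.92 ± 0.19 in the second, and exocrine pancreas markers 9.05 ± 0.69 and 10.19 ± 1.48. The part of these last 2 lists in the result was not tested.

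**Figure D3:**
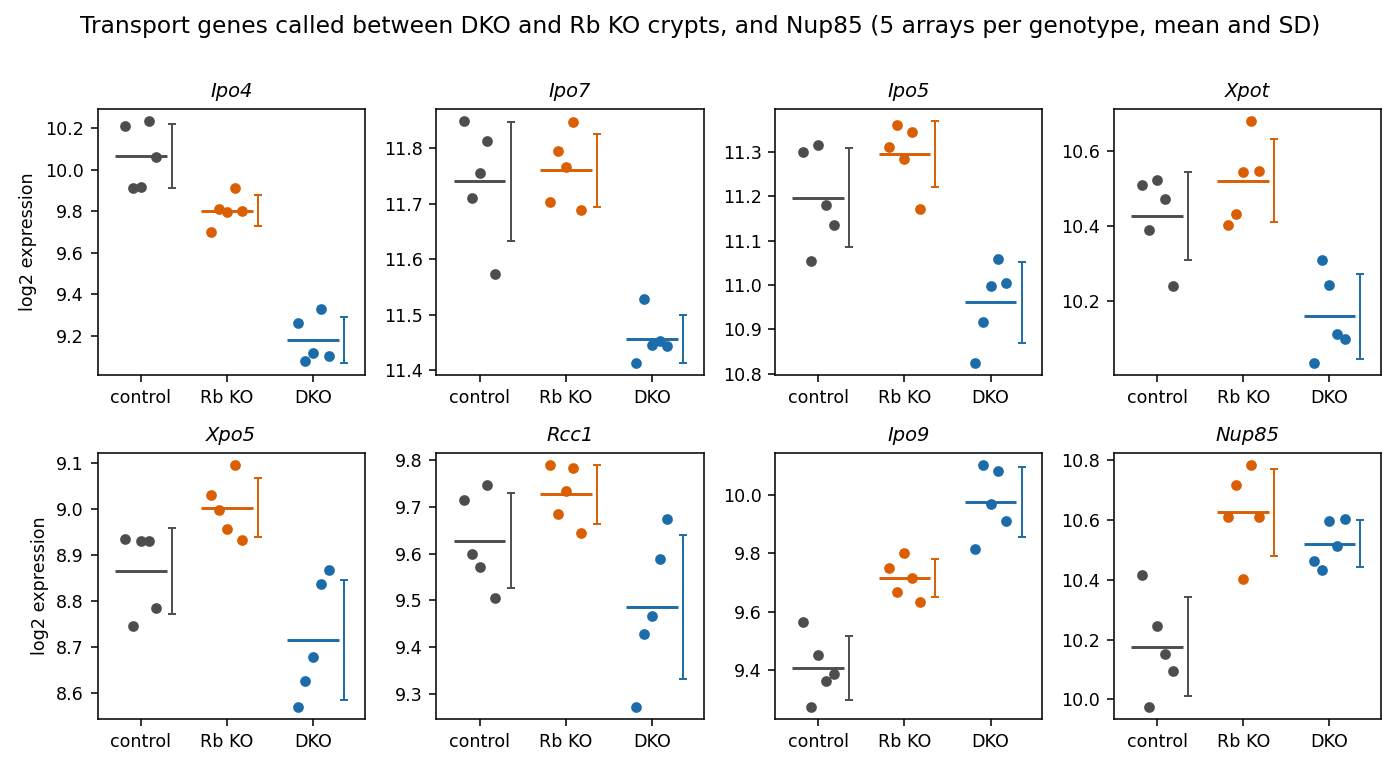
Log2 expression in crypts of the 7 genes called between DKO and Rb KO and of Nup85, by genotype. Points are single arrays (5 per genotype), horizontal lines are means and bars are SD, and the y axes do not start at 0. DKO points of Ipo4, Ipo7, Ipo5, Xpot and Xpo5 lie below all Rb KO points, and those of Ipo9 above.

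Against control, DKO crypts had 13 of the 45 genes higher and 4 lower, where 11.0% of all genes were higher and 9.19% lower. The median difference was 0.10, against 0.01 over all genes. Every DKO array lay above every control array in 10 of the 45 and below in 2, against 7.54% and 5.97% of all genes. These values use the control arrays of the Rb KO comparison again. Ipo4 fell by 0.89 ± 0.07 (1.85-fold lower, adjusted p = 1.57e-06), the largest difference of the 45 in crypts. Ipo7 (−0.28 ± 0.05, adjusted p = 0.00147), Ipo5 (−0.24 ± 0.06, adjusted p = 0.0126) and Xpot (−0.27 ± 0.07, adjusted p = 0.0136) were the others that fell. With the mean of probe sets Ipo5 differed by −0.09 and did not pass (adjusted p = 0.242), and Xpot differed by −0.16 (adjusted p = 0.0381).

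The rises were led by Ipo9 (1.48-fold, 0.57 ± 0.07, adjusted p = 1.94e-05), Nup50 (0.31 ± 0.04, adjusted p = 9.36e-05), Rangap1 (0.38 ± 0.07, adjusted p = 0.00164), Kpna3 (0.30 ± 0.07, adjusted p = 0.00533), Nup85 (0.34 ± 0.08, adjusted p = 0.00681) and Nup205 (0.24 ± 0.06, adjusted p = 0.00737). Ranbp1 read 12.91, 12.94, 13.04, 13.06 and 12.93 in DKO crypts against 12.79, 12.55, 12.84, 12.70 and 12.83 in control, with no overlap (0.24 ± 0.07, adjusted p = 0.0185). Ran rose by 0.19 ± 0.06 (adjusted p = 0.0204, but 0.0545 without control 2 and 0.0555 without DKO 3). Of its 4 other probe sets above the limit, 3 gave −0.05 to −0.02 and 1 gave 0.34 (adjusted p = 0.00828 among all probe sets). The mean of its probe sets did not pass (0.10, adjusted p = 0.329). Kpna2 (0.21 ± 0.06, adjusted p = 0.0263) lost its call without control 1, DKO 2 or DKO 4 (adjusted p = 0.0529 to 0.0684), and Nup160 (0.23 ± 0.07, adjusted p = 0.0223) without control 1 or 2 or DKO 4, or with the mean of its probe sets (adjusted p = 0.0522 to 0.0644). Nup88 (0.20 ± 0.06, adjusted p = 0.0193) lost it without control 2 or 4 or DKO 4. Xpo1 (0.14 ± 0.05, adjusted p = 0.0515), Cse1l (0.12 ± 0.07, adjusted p = 0.263), Kpnb1 (0.10 ± 0.07, adjusted p = 0.346) and Rcc1 (−0.14 ± 0.07, adjusted p = 0.185) did not pass. Markers of the exocrine pancreas, 5 of 6 measured, spread from 8.52 to 12.21 in DKO crypts and from 8.56 to 10.76 in control, and T cell markers were at 7.64 to 8.09 in DKO crypts and at 7.22 to 7.67 in control crypts. Their part in these results was not tested.

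Whether Rb loss acted differently in villi and crypts was tested as the difference between its effects in the 2 tissues. The rise was larger in villi for 22 of the 45 genes and smaller for 0, where 6.76% of all genes differed in the first direction and 6.98% in the second. Within a genotype, villus and crypt arrays of equal number deviated together and were taken to come from 1 mouse, and with the mouse as a block the counts were 25 larger and 1 smaller, against 9.77% and 10.8% of all genes. Nup85 rose by 1.15 ± 0.17 more in villi than in crypts (adjusted p = 2.67e-05), Ran by 1.01 ± 0.17 (adjusted p = 0.000133), Nup155 by 1.07 ± 0.17 (adjusted p = 9.61e-05) and Nup210 by 0.95 ± 0.15 (adjusted p = 9.07e-05). Nup205 and Ipo9 rose by 0.86 ± 0.14 and 0.71 ± 0.11 more. These 6 calls held under every alternative tried, but with the mean of each gene's probe sets the sizes of 3 fell by over 1.5 times, to 0.65 for Nup155, 0.52 for Nup210 and 0.37 for Nup205 (adjusted p = 0.0432 for the last). The size for Ran also depends on the probe set. The dimmest above the limit rose by 0.93 in villi and 0.37 in crypts, the others by 1.03 to 1.19 and 0.10 to 0.18. The 22 included all 4 genes of the Ran cycle, all 4 of the inner ring and 4 of the 6 of the outer ring, but 0 of the 6 importin alpha genes and 0 of the 2 of the basket.

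Kpna3 and Nup50, called higher in both tissues, differed between the tissues by 0.03 and 0.19 and did not pass (adjusted p = 0.907 and 0.186). With the mouse as a block, the calls of Cse1l, Kpna2 and Xpo7 were added as larger in villi (adjusted p = 0.018, 0.0199 and 0.0271) and Ipo8 as lower in villi (adjusted p = 0.0187). Without Rb KO arrays 4 and 5 the count was 12. Since the scales of the tissues were set separately, these values compare log2 differences and not levels.

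For loss of Myc in tissue without Rb, 1 of the 45 genes differed between tissues, where 2.29% of all genes differed in that direction and 1.11% in the other. It was Ipo4, whose DKO minus Rb KO difference was −0.06 in villi and −0.62 in crypts (difference 0.56 ± 0.14, adjusted p = 0.0303). That call was lost without Rb KO 2, 4 or 5 or DKO 1, 2, 3 or 5 (adjusted p = 0.0593 to 0.0872), and with the mouse as a block it held (adjusted p = 0.00872), with Kpna7 and Nup88 added in the other direction. With the block, 6.20% and 3.73% of all genes were called. Myc itself fell by 1.08 more in crypts.

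**Figure D4:**
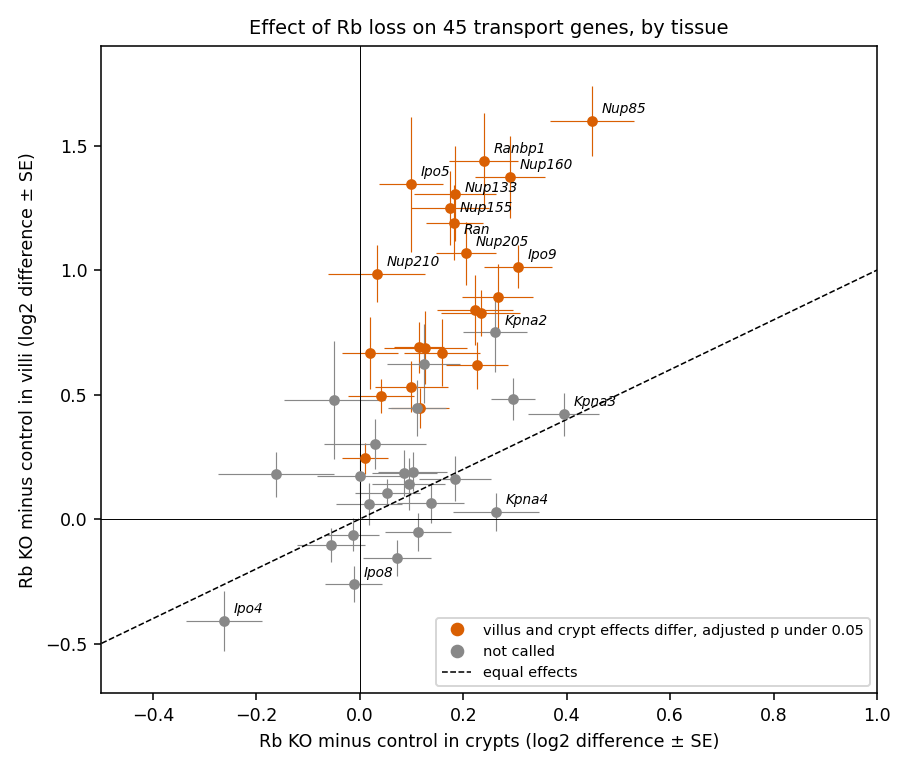
Difference between Rb KO and control in villi (y) and in crypts (x) for each of the 45 genes, log2 with SE bars. Orange points differ between tissues at an adjusted p under 0.05 and the dashed line marks equal effects. The 22 orange points lie above the line, Kpna3 lies close to it, and Ipo4 is below 0 on both axes.

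To place these genes among the programs that Rb and Myc act on, they were set beside the 6 subunits of the MCM helicase, an E2F-regulated part of the replication machinery, and 29 ribosome biogenesis factors, which Myc is known to drive. In Rb KO villi the median differences were 2.72 for the MCM subunits, 0.48 for the transport genes and 0.34 for the ribosome biogenesis factors, with 6 of 6, 28 of 45 and 11 of 29 called higher. In Rb KO crypts they were 0.54, 0.11 and 0.01, with 6, 11 and 0 called higher. Between DKO and Rb KO crypts the medians were 0.03, −0.04 and −0.36, with 1, 6 and 25 called lower. Between DKO and Rb KO villi they were −0.31, −0.14 and −0.27, with 0, 1 and 0 called lower. In DKO crypts against control, 20 of the 29 ribosome biogenesis factors were lower and all 6 MCM subunits higher, against 4 lower and 13 higher of the 45 transport genes. Of all genes tested, 14.7% were higher in Rb KO villi and 7.33% in Rb KO crypts. From Rb KO to DKO, 7.22% of all genes were lower in crypts and 1.92% in villi. In DKO crypts against control 9.19% of all genes were lower and 11.0% higher, and the 4 of 45 transport genes are near the first share. The difference between the 3 groups of genes was not tested.

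**Figure D5:**
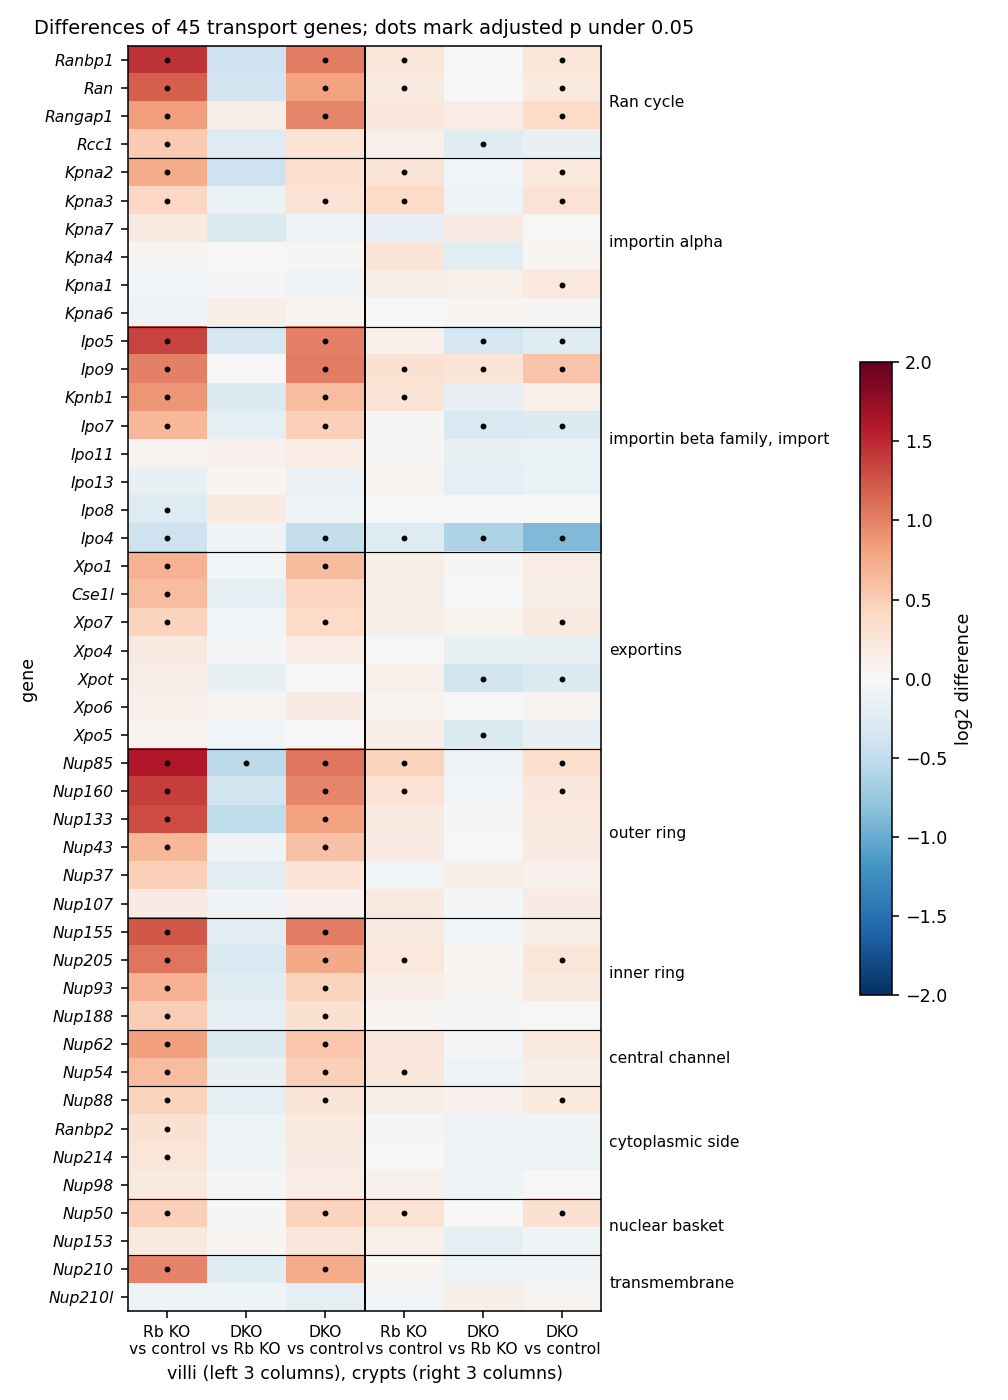
Log2 differences of the 45 genes (rows, grouped by role) in the 6 comparisons (columns; villi left, crypts right). Red is higher and blue lower in the first-named genotype, and dots mark an adjusted p under 0.05. Dots in Rb KO villi cover the Ran cycle and the inner ring in full, and in DKO against Rb KO crypts they fall on receptors and Rcc1.

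Genes of the same pathway outside the 45 were read from a list by function. Of 25 measured, 10 were higher and 1 lower in Rb KO villi, with a median difference of 0.19, where 14.7% of all genes were higher and 15.8% lower. Pom121, a membrane anchor of the pore, had the smallest p (0.58 ± 0.08, adjusted p = 6.75e-05). Ndc1, another anchor, was picked out after its values were seen as the largest difference of the list (1.43 ± 0.31, adjusted p = 0.00233). Ranbp6, close in sequence to Ipo5, was the gene that fell (−0.42 ± 0.10, adjusted p = 0.00529). Nxf1 and Nxt1, the export receptor of mRNA and its partner, rose by 0.48 ± 0.09 and 0.63 ± 0.09. In DKO villi 8 of the 25 were above control, among them Nxt1 (0.46 ± 0.09, adjusted p = 0.00215), where 11.3% of all genes were. In Rb KO crypts 3 were above control, with Nxt1 first (0.28 ± 0.06, adjusted p = 0.00836), where 7.33% of all genes were. Between DKO and Rb KO crypts 2 of the 25 were lower and 0 higher, where 7.22% of all genes were lower and 5.17% higher, so the count is near that of all genes. Rangrf, also named Mog1 for a Ran-binding protein of yeast, fell by 0.69 ± 0.08 (adjusted p = 4.36e-05) and by 0.84 ± 0.08 against control, close to the falls of Ipo4, and Nxt2 fell by 0.38 ± 0.10 (adjusted p = 0.0213).

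Over all 27025 genes with a promoter window, 10.9% held an E2F spelling and 8.09% an E-box. Among the 36 transport genes with a window, 7 held an E2F spelling (19.4%) and 8 an E-box (22.2%). By call, 6 of the 23 genes higher in Rb KO villi had an E2F spelling (26.1%), namely Ranbp1, Rcc1, Ipo7, Nup133, Nup188 and Nup210, against 1 of the other 13 (7.69%), which was Nup107. An E-box was as frequent among the 23 (6, or 26.1%), against 2 of the other 13 (15.4%). Of the 6 genes lower in DKO than Rb KO crypts, Ipo4, Ipo7 and Xpot had an E-box (50%), against 5 of the other 30 (16.7%). An E2F spelling was held by 2 of the same 6 genes (33.3%) and by 5 of the other 30 (16.7%). Ran, with its E-box, was not among those lower in DKO crypts, and Nup160 and Nup155, with some of the largest rises in Rb KO villi, had neither motif in the window. These are counts of letters in short windows, with no test.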

How the data were processed

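The values are log2 expression per probe set on 30 Affymetrix arrays, as deposited by the authors, and the background correction and normalization behind them are not given in the sources used here. Array medians were 6.28 to 6.34 in villi and 6.67 to 6.73 in crypts, and 2 arrays of a group shared 317 to 596 identical values but arrays of different tissues at most 1, so the tissues were treated as normalized separately. Of 45101 probe sets, 34958 had 1 gene symbol in the platform table, 932 had several and 9211 had none. Each gene was read from its probe set of highest mean, and genes below the 30th percentile of probe set means (5.33) were left out, which left 14548.

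Within each tissue, limma 3.58.1 (R 4.3.3) compared the 3 genotypes, and a fit to all 30 arrays tested whether effects differed between tissues. P-values were Benjamini-Hochberg adjusted over all genes. The 45 genes, the other lists and the tests were chosen with earlier results of these data known. Genes named by rule were Ran, Ranbp1, Rangap1, Rcc1, Kpna2, Kpnb1, Cse1l and Xpo1 throughout, with Rb1 and Myc as checks, up to 10 genes of smallest p per direction and comparison, up to 6 per test between tissues, and up to 6 of the further pathway list. The fits were tested on simulated data. Replicate numbers are from the labels. Villus and crypt arrays of 1 genotype and number deviated together (15 of 15 pairs with a correlation over 0.1, median 0.418) and were blocked as 1 mouse. Of 30 pairs of different genotypes of equal number in 1 tissue, 13 also passed 0.1, with a median of 0.036. That a villus and a crypt array came from 1 mouse was an assumption. Alternatives covered probe set choice, filter, scaling, empirical Bayes setting, blocks, marker and Gapdh covariates, groups fitted and left-out arrays.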

Additional observations from a re-analysis of the deposited data

Results flagged for a closer look

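Within groups of 5 arrays, 8 of 144 groups examined over 24 named genes (5.56%) held an array far from the others by Dixon's test, and chance alone gives about 1 in 20. In Rb KO crypts, array 4 was the high one for Ranbp1 (13.17), Kpnb1 (11.60), Xpo1 (11.38) and Nup205 (10.71). The remaining cases were Ipo4 in control villi 5 (8.53, low), Ipo9 in Rb KO villi 5 (9.16, high), and Nup205 in DKO villi 1 (8.93, low) and DKO crypts 1 (10.48).

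The effect of Rb loss differed between villi and crypts, larger in villi, for 22 genes by the test of that difference. In the Ran cycle the log2 differences between the effects were 1.01 for Ran, 1.20 for Ranbp1, 0.62 for Rangap1 and 0.43 for Rcc1. Among receptors they were 1.25 for Ipo5, 0.65 for Ipo7, 0.71 for Ipo9, 0.62 for Kpnb1 and 0.58 for Xpo1. In the outer ring they were 1.15 for Nup85, 1.08 for Nup160, 1.12 for Nup133 and 0.51 for Nup43, and in the inner ring 1.07 for Nup155, 0.86 for Nup205, 0.56 for Nup93 and 0.45 for Nup188. Elsewhere in the pore they were 0.95 for Nup210, 0.59 for Nup62, 0.39 for Nup54, 0.33 for Nup88 and 0.23 for Nup214. The effect of Myc loss differed between tissues for Ipo4, by 0.56.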

How the results depend on the processing

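The median difference of the 45 genes moved by less than the SD of their mean level within groups in all 164 alternatives. That SD was 0.05 to 0.06 in crypt groups and 0.12 to 0.15 in villus groups. The direction of the median was kept whenever 1 replicate was left out. Between DKO and Rb KO it was then −0.06 to −0.01 in crypts and −0.18 to −0.09 in villi. Since these medians are near that SD in size or below it, the measure says little of their stability. The count of genes called stayed within 1.5 times in 133 of 164. Between DKO and Rb KO villi the count of 1 became 0 with the mean of each gene's probe sets, 3 with the replicate number as a block, 20 with the crypt score, 3 with the Gapdh difference, 2 with only the groups compared and 0 without Rb KO 4 and 5, and was 0 to 1 when 1 array was left out. In Rb KO crypts the count of 12 became 7 with the crypt score and 5 without Rb KO 4 and 5, and was 7 to 12 when 1 array was left out. Between tissues, the count for Rb loss (22) became 12 without Rb KO 4 and 5, and was 16 to 25 when 1 array was left out. That for Myc loss (1) became 3 with the replicate block of the mouse, 4 with the crypt score, 0 with the Gapdh difference and 0 without Rb KO 4 and 5, and was 0 to 2 when 1 array was left out. Arrays of different genotypes with equal number (30 pairs) correlated at −0.274 to 0.419, with a median of 0.036 and 13 above 0.1. They were not treated as paired. With the replicate number as a block the other counts were 31, 27, 12, 6 and 18 against 30, 24, 12, 7 and 17. Rb KO 4 and 5 were left out because they stood apart in earlier work on these data. Except for the block of the mouse, shares of all genes called under the alternatives are not given here. The number of arrays, 5 a group, limits the precision.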
